A study of Homo sapiens with 18 samples.

Results

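The response to ibrutinib was compared between JEKO1 and MAVER, 2 human lines established from mantle cell lymphoma, a tumour of mature B cells that is usually marked by overexpression of cyclin D1. The comparison used 12 of the 18 RNA sequencing libraries of the study: 3 JEKO1 libraries labelled IB, 3 JEKO1 libraries labelled DMSO, 3 MAVER libraries with IB and 3 MAVER libraries with DMSO. IB was read as ibrutinib because the series description names that drug; it was given at 0.4 µM for 6 h, and DMSO, the solvent, for the same time. The remaining 6 libraries, MAVER with 2 other treatments, were not used. Each gene's IB effect, the log2 fold change of IB over DMSO, was taken within its own line, and the MAVER effect was subtracted from the JEKO1 effect. This was possible for 10591 of 25369 listed genes, those with a mean of at least 10 normalized counts in both lines. A positive difference means a higher effect in JEKO1. The same difference was computed with the JEKO1 labels exchanged, which turns the sign of the JEKO1 effect and leaves the MAVER effect as it is. Both readings rest on the same 12 libraries, so their values are set side by side and are not independent.

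Ibrutinib binds BTK covalently. BTK is a kinase that relays the signal of the B cell receptor through phospholipase C to calcium, to the RAS and ERK cascade and, by way of protein kinase C beta, to the transcription factor NF-kB. In parallel, the receptor activates PI3 kinase and AKT, which keep FOXO factors out of the nucleus. Immediate early genes such as EGR1 and chemokines such as CCL22 are well-known products of this signal in B cells, while RAG1 is a well-known target of FOXO1. In published work JEKO1 is usually classed as sensitive to ibrutinib and MAVER as resistant; the labels do not say which line is which.

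The 12 libraries held 8415254 to 12627963 recovered reads. Each of the 12 pairs of replicates differed beyond counting noise (chi-square per degree of freedom 1.39 to 4.78). The B cell markers were high in both lines, with summed levels over 10 genes of 60762 to 61922 normalized counts in JEKO1 labelled IB, 65631 to 68089 in JEKO1 labelled DMSO, 74169 to 76956 in MAVER with IB and 77315 to 78768 in MAVER with DMSO. Of the 3 mantle cell lymphoma markers listed, cyclin D1 (CCND1) was abundant in all 12 libraries, and SOX11 had 605 to 1507 normalized counts. CD5 was lower, with 63.8 to 82.6 in JEKO1 labelled IB and 20.03 to 29.3 in JEKO1 labelled DMSO. In MAVER, CD5 had 147 to 161 with IB and 271 to 306 with DMSO. All 4 erythroid markers were at 0. The 8 T cell markers summed to 23.8 to 29.8 in JEKO1 labelled IB, 14.7 to 21.2 in JEKO1 labelled DMSO, 0 to 2.23 in MAVER with IB and 1.56 to 2.86 in MAVER with DMSO, with 2 of the 8 at 0 throughout. The 6 NK cell markers summed to 29.3 to 35.5 in JEKO1 labelled IB, 12.1 to 27.9 in JEKO1 labelled DMSO, 84.9 to 94.5 in MAVER with IB and 65.7 to 73.3 in MAVER with DMSO, 1 of them at 0. The 9 myeloid markers summed to 17.8 to 36.7 in JEKO1 labelled IB, 17.2 to 24.6 in JEKO1 labelled DMSO, 19.1 to 22.3 in MAVER with IB and 27.6 to 39.1 in MAVER with DMSO, 4 of them at 0. The 8 stromal and epithelial markers, PECAM1 among them, summed to 142 to 158 in JEKO1 labelled IB, 255 to 286 in JEKO1 labelled DMSO, 555 to 623 in MAVER with IB and 538 to 605 in MAVER with DMSO, 2 of them at 0. The part of these marker levels in the results was not tested. Replicate C of JEKO1 labelled DMSO held 65331 normalized counts of the ribosomal RNA precursor gene RNA45S5, against 7919 to 25147 in the other 11. The treatment is a drug that acts on a protein, so no transcript checks the labels. As labelled, products of receptor signalling such as EGR1, CCL22 and DUSP5 were higher in the JEKO1 libraries labelled IB than in those labelled DMSO and lower in MAVER with IB than with DMSO. Whether the JEKO1 labels are exchanged was not tested, and the libraries are called by their labels throughout. The series text calls the replicates biological without saying what they share, so each p-value reflects how far these libraries spread.

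With the labels as given, the IB effect was higher in JEKO1 than in MAVER for 2301 genes (21.7% of those tested) and lower for 2084 (19.7%), by limma with Benjamini-Hochberg adjustment at 0.05. Of these, 814 differed by at least 2-fold, 453 of them higher and 361 lower. With the JEKO1 labels exchanged, 1044 genes were higher (9.86%) and 1380 lower (13%), of which 219 differed by at least 2-fold, 48 higher and 171 lower. The median absolute difference over all genes tested was 0.24 (log2) as labelled and 0.17 exchanged. The IB effect taken alone passed the test upwards for 2371 genes in JEKO1 as labelled (22.4%) and downwards for 2186 (20.6%). In MAVER 1035 genes rose with IB (9.77%) and 976 fell (9.22%). At least 2-fold effects were seen for 375 of the genes called in JEKO1 and 128 of those called in MAVER. Counts of list members below are to be read beside the percentages of all genes given here.

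**Figure D1:**
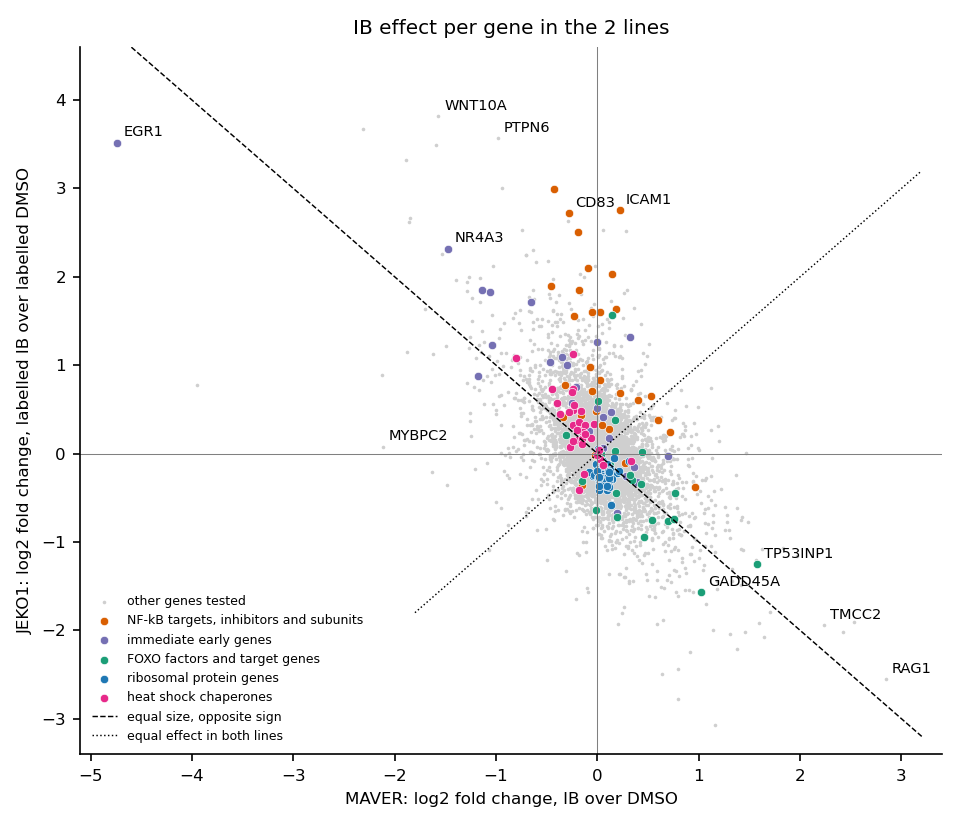
Log2 fold change of IB over DMSO for each of the 10591 genes tested, in MAVER (horizontal axis) and in JEKO1 as labelled (vertical axis), with members of 5 gene lists in colour. Most genes far from the origin lie in the upper left and lower right fields, with RAG1 close to the dashed line of equal size and opposite sign. Of the 30 NF-kB genes, 25 rose and 2 fell in JEKO1, while in MAVER 7 rose and 6 fell, around a median of -0.02.

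Genes that responded strongly in MAVER had, as labelled, an effect of opposite sign in JEKO1. The 59 genes with a MAVER effect of -1 or below had a median JEKO1 effect of 1.21, and 54 of them were above 0 in JEKO1. The 72 genes with a MAVER effect above 1 had a median JEKO1 effect of -0.88, and 66 of them were below 0. Between these ends the JEKO1 median passed in order through 0.55, 0.23, -0.01, -0.16 and -0.39. Of 1383 genes called in both lines, 617 rose in JEKO1 while they fell in MAVER, 612 fell in JEKO1 while they rose in MAVER, 93 were higher in both and 61 were lower in both. A further 3174 genes were called in JEKO1 alone and 628 in MAVER alone, which by itself does not show that the effects differ. These are descriptions across genes, which are not independent.

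**Figure D2:**
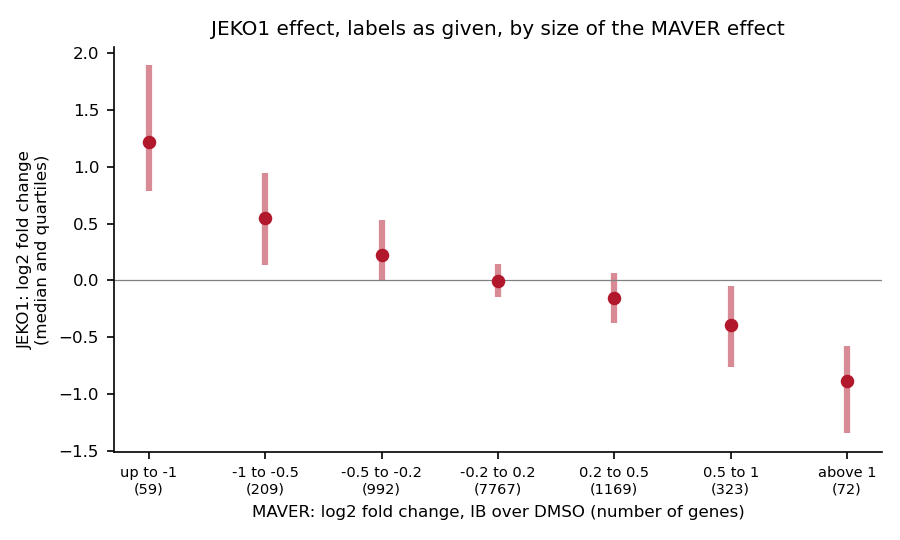
Median (point) and quartiles (bar) of the JEKO1 effect, labels as given, for genes grouped by their MAVER effect, in log2 fold change of IB over DMSO. The median runs from 1.21 for the 59 genes lowest in MAVER to -0.88 for the 72 genes highest there.

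Components of the B cell receptor pathway itself moved in both directions. Of 34 measured members, 16 had a higher effect in JEKO1 and 11 a lower one as labelled, with a median difference of 0.09, against 0.00 over all genes tested. Exchanged, 8 were higher and 12 lower, with a median of -0.03. RAC2, a small GTPase of haematopoietic cells, had 618, 594 and 602 normalized counts in JEKO1 labelled IB, against 194, 215 and 223 in JEKO1 labelled DMSO. In MAVER, RAC2 had 2006, 2062 and 1886 with IB and 2954, 2985 and 3035 with DMSO. The groups did not overlap in either line and lay in opposite order. The RAC2 difference was 2.11 ± 0.08 (log2 ± SE, limma adjusted p = 1.38e-17) as labelled and -0.93 ± 0.08 (adjusted p = 2.16e-09) exchanged. RASGRP1, which activates RAS in response to diacylglycerol, had a difference of 2.18 as labelled and -1.42 exchanged.

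PRKCB, the protein kinase C isoform of B cell receptor signalling, moved the other way. It had 3855, 3639 and 3730 normalized counts in JEKO1 labelled IB, against 5793, 5945 and 5607 in JEKO1 labelled DMSO. In MAVER it had 4005, 4194 and 4091 with IB and 1992, 1934 and 1941 with DMSO. All MAVER libraries with IB were above all with DMSO, and the JEKO1 libraries were in the reverse order. The PRKCB difference was -1.69 ± 0.05 as labelled (limma adjusted p = 1.18e-18) and -0.44 ± 0.05 exchanged (adjusted p = 1.46e-06). CD79B, a signalling chain of the receptor, had IB effects of -0.72 in JEKO1 and 0.63 in MAVER. Its difference was called as labelled (-1.35 ± 0.07) and not when exchanged (0.08, 95% interval -0.05 to 0.22). BTK, the target of the drug, had 2842, 2883 and 2724 normalized counts in JEKO1 labelled IB, against 2273, 2311 and 2260 in JEKO1 labelled DMSO. BTK had 2580, 2672 and 2483 in MAVER with IB and 2783, 2907 and 2827 with DMSO. These groups did not overlap, and the BTK difference was 0.44 ± 0.06 as labelled (limma adjusted p = 6.1e-07) and -0.16 ± 0.06 exchanged (adjusted p = 0.0412), a call that was lost under 10 of the alternative settings.

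Inhibitory receptors and phosphatases, which damp B cell receptor signalling, had mostly higher effects in JEKO1 as labelled: 16 of 25 members were higher and 2 lower, FCRL1 and PECAM1, with a median difference of 0.69. Exchanged, 5 were higher and 7 lower, with a median of -0.08. In JEKO1 18 rose and 6 fell as labelled, while in MAVER 1 rose and 13 fell. PTPN6, the phosphatase SHP-1, had 1510, 1392 and 1417 normalized counts in JEKO1 labelled IB, against 122, 131 and 108 in JEKO1 labelled DMSO. In MAVER PTPN6 had 179, 215 and 178 with IB and 348, 384 and 401 with DMSO. The JEKO1 libraries labelled IB stood far above the DMSO libraries, and the MAVER libraries with IB stood below theirs. Its difference of 4.56 ± 0.12 (limma adjusted p = 8.1e-20) was the second highest as labelled among genes with a mean of at least 50 in both lines, and it was -2.59 ± 0.12 exchanged (adjusted p = 4.6e-14).

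CD72, a lectin-like receptor that recruits SHP-1, had 1189, 1176 and 1187 normalized counts in JEKO1 labelled IB, against 334, 285 and 295 in JEKO1 labelled DMSO. In MAVER, CD72 had 345, 367 and 290 with IB and 885, 857 and 885 with DMSO. The groups were apart in both lines and in opposite order, with a difference of 3.35 ± 0.10 as labelled (limma adjusted p = 7.39e-19) and -0.56 ± 0.10 exchanged (adjusted p = 0.000289). LILRB4, another inhibitory receptor, had effects of 2.12 in JEKO1 and -1.03 in MAVER. PAG1, an adaptor that holds the kinase CSK at the membrane, had effects of 1.20 in JEKO1 and -1.27 in MAVER, and the Fc receptor-like protein FCRLA effects of 0.59 in JEKO1 and -0.68 in MAVER. For both, the difference was called as labelled (2.46 for PAG1 and 1.27 for FCRLA) and not when exchanged, with 95% intervals of -0.23 to 0.36 for PAG1 and -0.02 to 0.19 for FCRLA. INPP5D, the lipid phosphatase SHIP1, stood apart from these. It was lower with IB in both lines as labelled (-0.40 in JEKO1 and -0.29 in MAVER), its difference was not called as labelled (-0.12, 95% interval -0.23 to 0.00, limma adjusted p = 0.0978), and exchanged it was 0.69 ± 0.06 (adjusted p = 1.07e-09).

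**Figure D3:**
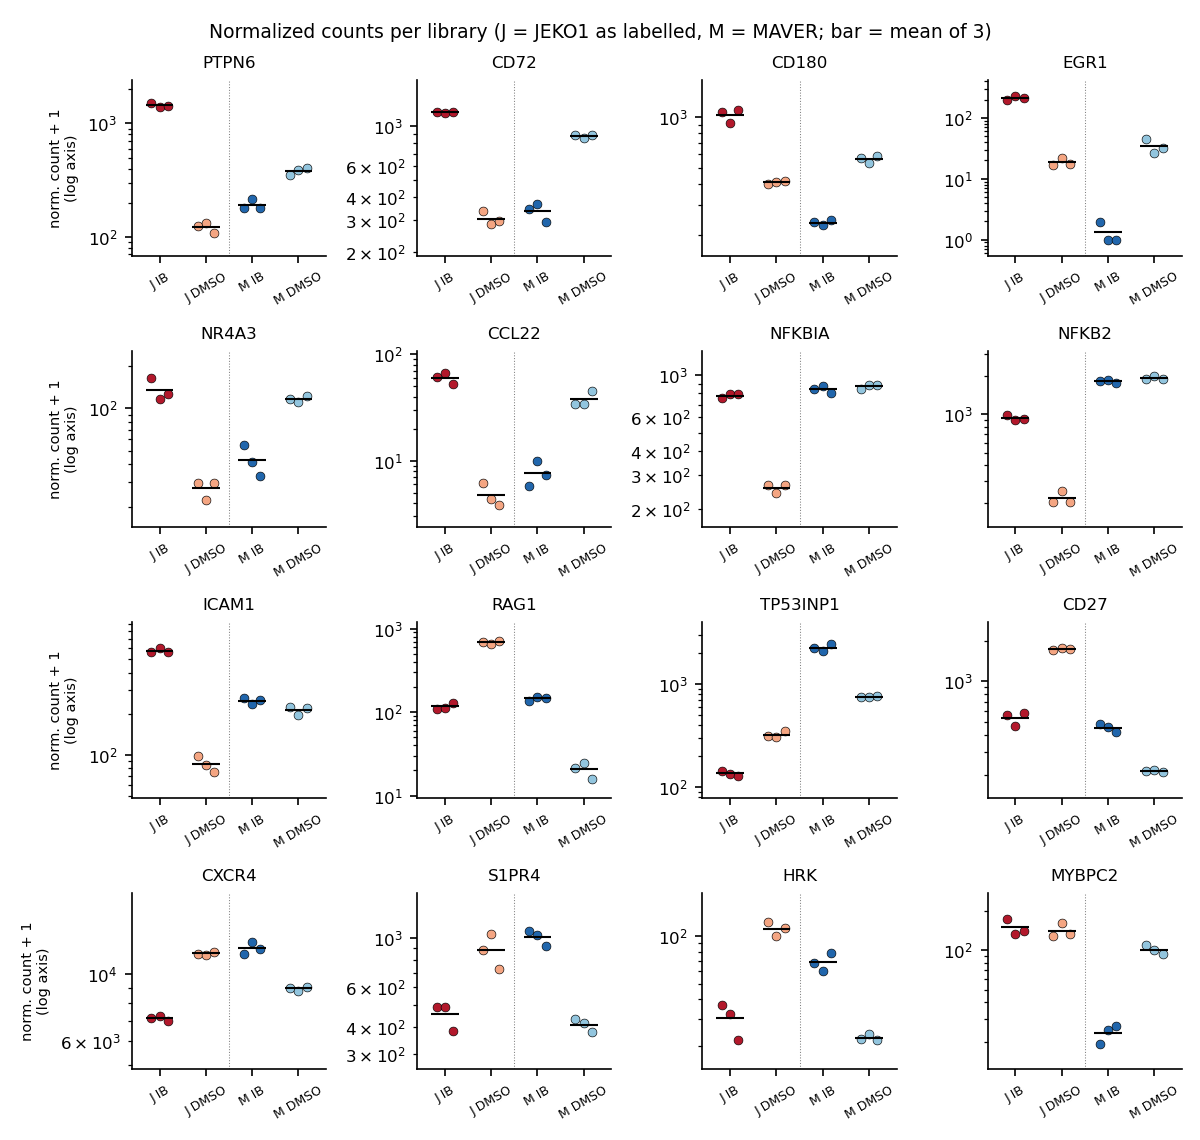
Normalized counts of 16 genes in each library, with JEKO1 (J) and MAVER (M) panels scaled per gene and a bar at the mean of 3 libraries. PTPN6, CD72, CD180, EGR1, NR4A3 and CCL22 are higher in JEKO1 labelled IB and lower in MAVER with IB than in the DMSO libraries, RAG1, TP53INP1, CD27, CXCR4, S1PR4 and HRK show the reverse, and NFKBIA, NFKB2 and ICAM1 are far apart in JEKO1, with effects of -0.05, -0.09 and 0.22 in MAVER.

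Immediate early genes were among the widest differences. Of 25 measured members, 17 had a higher effect in JEKO1 as labelled and 5 a lower one (MYC, BTG2, TGIF1, RGS16 and CSRNP1), with a median difference of 0.97. Exchanged, 3 were higher and 13 lower, with a median of -0.51. EGR1 had 195, 227 and 211 normalized counts in JEKO1 labelled IB, against 15.5, 21.2 and 16.2 in JEKO1 labelled DMSO. In MAVER, EGR1 had 0.963, 0 and 0 with IB and 43.3, 25.7 and 30.5 with DMSO. The MAVER values with IB rest on 1 read over 3 libraries, against 113 reads with DMSO, a DMSO to IB ratio of 95.1 with a counting interval of 16.7 to 3790. The fitted EGR1 difference of 8.26 ± 0.42 therefore depends on the constant of 1 added before the logarithm. Exchanged, it was 1.22 ± 0.42 with that constant (limma adjusted p = 0.0355) and -0.44 (adjusted p = 0.295) with a constant of 5.

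NR4A3, an orphan nuclear receptor induced by antigen receptors, had 164, 116 and 125 normalized counts in JEKO1 labelled IB, against 28.5, 21.2 and 28.6 in JEKO1 labelled DMSO. In MAVER, NR4A3 had 53.9, 40.2 and 31.9 with IB and 115, 110 and 121 with DMSO. No library of one treatment reached into the range of the other, and the order was opposite in the lines. The NR4A3 difference was 3.79 ± 0.26 as labelled (limma adjusted p = 6.29e-12) and -0.85 ± 0.26 exchanged (adjusted p = 0.0203), a call that was lost under 4 of the alternative settings. NR4A1 had effects of 1.82 in JEKO1 and -1.06 in MAVER, NAB2, a corepressor of EGR factors, 0.88 in JEKO1 and -1.18 in MAVER, and JUNB, a subunit of AP-1, 1.71 in JEKO1 and -0.65 in MAVER. MYC went the other way, with effects of -0.67 in JEKO1 and 0.20 in MAVER and differences of -0.87 as labelled and 0.48 exchanged.

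All 6 measured ERK feedback genes had a higher effect in JEKO1 as labelled, with a median difference of 1.26, and 4 had a lower one exchanged, with a median of -1.09; 12 others of the list were under the filter. DUSP5, a nuclear phosphatase that acts on ERK, had 191, 183 and 185 normalized counts in JEKO1 labelled IB, against 11.2, 22.4 and 21.9 in JEKO1 labelled DMSO. In MAVER, DUSP5 had 6.74, 4.47 and 7.43 with IB and 20.3, 22.9 and 34.4 with DMSO. The treatments did not overlap in either line, and the difference was 5.21 ± 0.38 as labelled (limma adjusted p = 1.67e-11) and -1.44 ± 0.38 exchanged (adjusted p = 0.00715). DUSP2, by contrast, had an effect of 1.32 in JEKO1 and one that was not called in MAVER (-0.09, adjusted p = 0.702).

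Of the chemokines and cytokines, 4 of 18 passed the filter. CCL22, a chemokine that B cells secrete on receptor signalling, had 60.4, 65.4 and 51.3 normalized counts in JEKO1 labelled IB, against 5.17, 3.35 and 2.86 in JEKO1 labelled DMSO. In MAVER, CCL22 had 4.82, 8.94 and 6.37 with IB and 33.2, 33.3 and 43.8 with DMSO. High and low libraries were apart in both lines and swapped treatment between them. Its difference was 5.98 ± 0.42 as labelled (limma adjusted p = 8.83e-12) and -1.35 ± 0.42 exchanged (adjusted p = 0.0214), a call that was lost under 8 of the alternative settings. TGFB1 and FLT3LG also had higher effects in JEKO1 as labelled (0.82 and 1.15), and IL16 a lower one (-0.85). TNF and LTB, both of the MHC region, were listed at 0 in all 12 libraries, which is not read as absence of expression.

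Most NF-kB genes were higher in JEKO1 labelled IB than in JEKO1 labelled DMSO. In MAVER, members moved in both directions around a median effect close to 0. Of 30 measured targets, inhibitors and subunits, 21 had a higher effect in JEKO1 as labelled and 3 a lower one (PIM1, IRF1 and BIRC3), with a median difference of 0.78. Exchanged, 1 was higher and 25 lower, with a median of -0.97. In JEKO1 25 rose and 2 fell as labelled (83.3% and 6.67%, beside 22.4% and 20.6% of all genes), with a median effect of 0.74. In MAVER 7 rose and 6 fell (23.3% and 20%, beside 9.77% and 9.22%), with a median effect of -0.02. Among these, PIM1 rose in MAVER (0.96) and CD83 fell (-0.28). The promoter windows of 4 genes are shown because they hold matches to GGNNTTTCC, a short form of the NF-kB motif searched on both strands: 3 NF-kB genes with an effect in JEKO1 and none called in MAVER, and WNT10A, which had the highest difference as labelled among genes with a mean of at least 50 in both lines. They are the RefSeq windows on GRCh38.p14, from 250 bases before to 50 bases after the start, 5′ to 3′ on the gene's strand, with matches in capitals.
NFKBIA (chr14:35404700-35404999, minus strand): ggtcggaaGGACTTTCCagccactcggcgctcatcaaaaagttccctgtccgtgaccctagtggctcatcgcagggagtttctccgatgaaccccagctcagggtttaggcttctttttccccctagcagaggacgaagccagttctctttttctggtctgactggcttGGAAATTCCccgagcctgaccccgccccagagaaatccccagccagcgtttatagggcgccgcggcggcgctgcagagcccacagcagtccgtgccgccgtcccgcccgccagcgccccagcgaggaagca
TNFAIP3 (chr6:137867009-137867308, plus strand): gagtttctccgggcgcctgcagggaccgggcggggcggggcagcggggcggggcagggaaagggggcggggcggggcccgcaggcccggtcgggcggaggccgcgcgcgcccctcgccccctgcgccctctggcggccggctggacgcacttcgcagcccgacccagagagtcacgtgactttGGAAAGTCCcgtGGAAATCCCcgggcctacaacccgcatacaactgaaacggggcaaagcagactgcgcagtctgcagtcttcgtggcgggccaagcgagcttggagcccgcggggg
ICAM1 (chr19:10270870-10271169, plus strand): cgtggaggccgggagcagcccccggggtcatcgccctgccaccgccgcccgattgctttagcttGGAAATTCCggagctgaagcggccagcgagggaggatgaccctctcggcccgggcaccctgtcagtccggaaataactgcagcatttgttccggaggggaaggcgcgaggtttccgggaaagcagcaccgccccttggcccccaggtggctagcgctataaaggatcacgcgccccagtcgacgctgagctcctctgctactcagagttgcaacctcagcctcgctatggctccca
WNT10A (chr2:218880602-218880901, plus strand): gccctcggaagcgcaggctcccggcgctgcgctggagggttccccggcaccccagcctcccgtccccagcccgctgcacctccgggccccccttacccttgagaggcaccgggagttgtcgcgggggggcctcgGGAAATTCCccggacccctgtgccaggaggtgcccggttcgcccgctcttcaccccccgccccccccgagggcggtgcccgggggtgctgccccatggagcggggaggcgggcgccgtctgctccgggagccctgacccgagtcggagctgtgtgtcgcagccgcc
The matches begin 242 and 81 bases before the start of NFKBIA, 67 and 55 before that of TNFAIP3, 186 before that of ICAM1 and 116 before that of WNT10A. Of the 13 members of the list with 1 listed start, 6 held a match (46.2%): NFKBIA, REL, TNFAIP3, BIRC3, ICAM1 and BCL3. Of all 5719 genes tested with 1 listed start, 406 held one (7.1%). The list was made of NF-kB genes in the first place, so its share of matches does not bear on the IB effect. BIRC3, which held a match, had a lower effect in JEKO1 as labelled. A match describes the letters of the window and is not a measured binding site.

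NFKBIA, which encodes the inhibitor IkB-alpha and is itself an NF-kB target, had 755, 793 and 790 normalized counts in JEKO1 labelled IB, against 266, 240 and 264 in JEKO1 labelled DMSO. In MAVER, NFKBIA had 847, 873 and 806 with IB and 844, 889 and 886 with DMSO. The JEKO1 groups were apart and the MAVER groups overlapped. The NFKBIA effect was 1.60 ± 0.06 in JEKO1 and -0.05 ± 0.06 in MAVER (limma adjusted p = 0.612), so that the difference was 1.65 ± 0.08 as labelled (adjusted p = 1.19e-14) and -1.55 ± 0.08 exchanged (adjusted p = 5.04e-13). NFKB2, the subunit of the alternative pathway, had 987, 900 and 911 in JEKO1 labelled IB, against 203, 247 and 203 in JEKO1 labelled DMSO. In MAVER, NFKB2 had 1836, 1860 and 1759 with IB and 1909, 2011 and 1903 with DMSO. The MAVER groups lay next to each other without overlap, and their effect of -0.09 was not called (limma adjusted p = 0.349). The NFKB2 difference was 2.19 ± 0.09 as labelled and -2.01 ± 0.09 exchanged.

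ICAM1, an adhesion molecule, had 569, 600 and 562 normalized counts in JEKO1 labelled IB, against 96.6, 83.8 and 74.4 in JEKO1 labelled DMSO. In MAVER, ICAM1 had 262, 235 and 250 with IB and 225, 196 and 220 with DMSO. Libraries with IB were the higher ones in both lines, by far more in JEKO1. The ICAM1 difference was 2.54 ± 0.14 as labelled (limma adjusted p = 4.06e-14) and -2.98 ± 0.14 exchanged (adjusted p = 2.39e-14), the lowest of the exchanged differences among genes with a mean of at least 50 in both lines. TNFAIP3, the deubiquitinase A20, had differences of 1.88 as labelled and -2.17 exchanged, and CD83, an activation antigen, of 3.00 as labelled and -2.44 exchanged. NFKBIE, another inhibitor, had 2.03 as labelled and -1.66 exchanged, and NFKBID, a nuclear relative of these inhibitors, 3.42 and -2.56. PLEK, a substrate of protein kinase C, had 2.70 as labelled and -2.32 exchanged. Outside the list, HIVEP3, a zinc finger protein that binds NF-kB motifs, had 2.47 as labelled and -2.59 exchanged. PIM1, a survival kinase, had effects of -0.38 in JEKO1 and 0.96 in MAVER and a lower effect in JEKO1 under both readings (-1.34 and -0.58). TRAF3, which restrains the alternative NF-kB pathway, was under the filter because it averaged 0.130 normalized counts over the 6 MAVER libraries; in JEKO1 it averaged 1824.

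**Figure D4:**
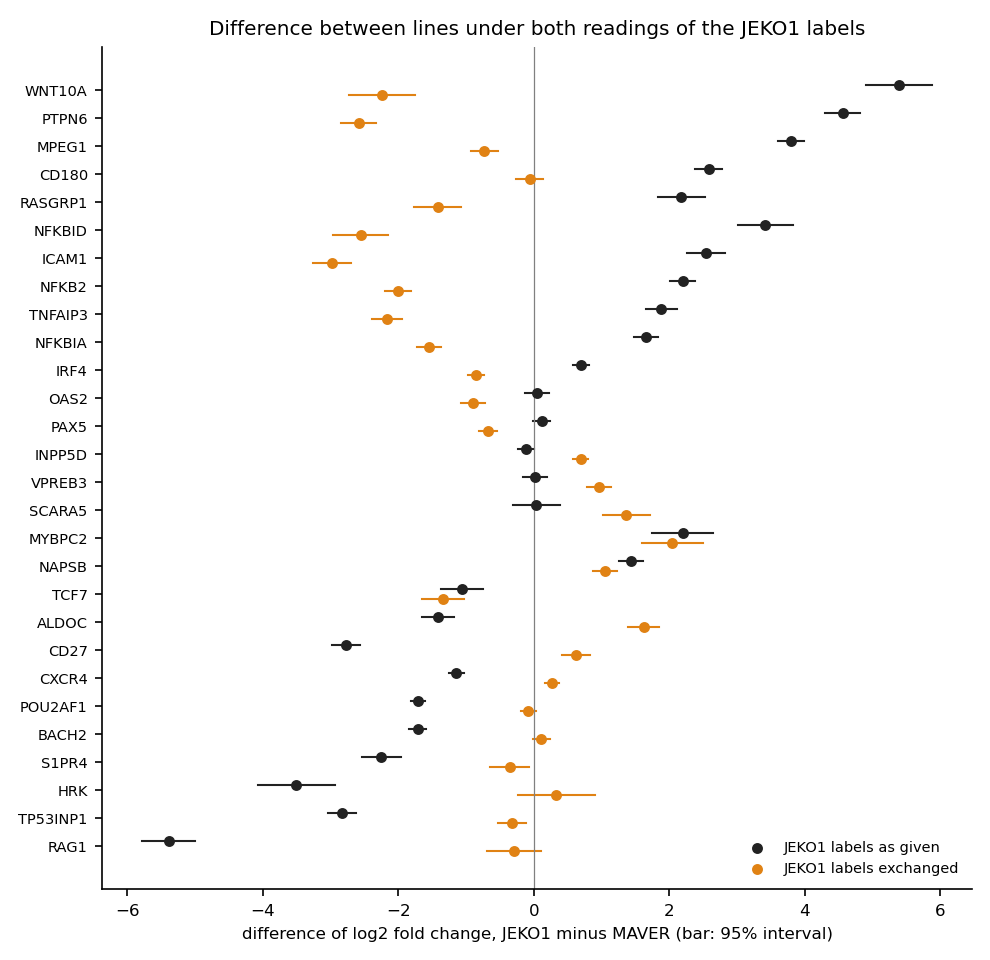
Difference of the IB effect, JEKO1 minus MAVER, in log2 units for selected genes with the labels as given and with the JEKO1 labels exchanged. Genes such as RAG1 and CD180 lie far from 0 as labelled and near 0 exchanged, NF-kB genes such as ICAM1 change sign, and MYBPC2 stays on one side of 0 with 2.20 and 2.04.

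FOXO factors and their targets showed the reverse of the immediate early genes. Of 28 members, 3 had a higher effect in JEKO1 as labelled (IL7R, BNIP3 and ARRDC4) and 20 a lower one, with a median difference of -0.42. Exchanged, 5 were higher and 5 lower, with a median of 0.04. In JEKO1 3 rose and 18 fell as labelled, and in MAVER 11 rose, with a median effect of 0.18. RAG1, the recombinase of immunoglobulin genes, was listed with V(D)J recombination and had the lowest difference as labelled among all genes tested. It had 109, 112 and 127 normalized counts in JEKO1 labelled IB, against 687, 656 and 704 in JEKO1 labelled DMSO. In MAVER, RAG1 had 134, 152 and 149 with IB and 20.3, 23.8 and 14.9 with DMSO. The groups were wide apart in both lines, low with IB in JEKO1 and high with IB in MAVER. The RAG1 difference was -5.39 ± 0.19 as labelled (limma adjusted p = 7.81e-18); exchanged it was -0.29 ± 0.19 (adjusted p = 0.293, 95% interval -0.69 to 0.10).

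TP53INP1, a stress protein involved in autophagy, had 144, 134 and 127 normalized counts in JEKO1 labelled IB, against 314, 304 and 348 in JEKO1 labelled DMSO. In MAVER, TP53INP1 had 2223, 2066 and 2430 with IB and 741, 745 and 757 with DMSO. Again the groups were apart and in opposite order, with a difference of -2.83 ± 0.10 as labelled (limma adjusted p = 7.31e-18) and -0.33 ± 0.10 exchanged (adjusted p = 0.0184), a call that was lost under 3 of the alternative settings. GADD45A, a growth arrest gene, had effects of -1.57 in JEKO1 and 1.03 in MAVER and differences of -2.60 as labelled and 0.54 exchanged. CCNG2, an atypical cyclin, and KLHL24 had differences of -1.45 and -1.28 as labelled, and neither was called exchanged (0.07 and 0.21). TXNIP and ARRDC3, both arrestin-like proteins, had lower effects in JEKO1 as labelled (-0.92 and -0.62) and higher ones exchanged (0.53 and 0.66). VPREB3, a chaperone of immunoglobulin chains, behaved unlike RAG1: it was lower with IB in both lines as labelled (-0.47 in JEKO1 and -0.49 in MAVER), with differences of 0.02 (limma adjusted p = 0.904, 95% interval -0.16 to 0.19) as labelled and 0.96 (adjusted p = 5.63e-09) exchanged.

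Transcription factors of B cell identity divided into both directions. Of 27, 13 had a higher effect in JEKO1 as labelled and 9 a lower one, with a median of 0.20; exchanged, 6 were higher and 16 lower, with a median of -0.26. POU2AF1, the coactivator OBF-1, had 3666, 3548 and 3447 normalized counts in JEKO1 labelled IB, against 6323, 6261 and 6186 in JEKO1 labelled DMSO. In MAVER, POU2AF1 had 4767, 4672 and 4722 with IB and 2529, 2561 and 2516 with DMSO. Within each line the treatments were well apart, and the higher one was not the same. The POU2AF1 difference was -1.71 ± 0.05 as labelled (limma adjusted p = 5.3e-19) and -0.08 exchanged (95% interval -0.19 to 0.03). BACH2, a repressor of plasma cell differentiation, had differences of -1.72 as labelled and 0.11 exchanged, the second one not called. ETS1 had -1.25 and 0.44, both called. SPIB, an ETS family factor of B cells, had effects of 1.06 in JEKO1 and -0.84 in MAVER. IRF4, a factor of plasma cell differentiation that lies downstream of NF-kB, had effects of 0.77 in JEKO1 and 0.08 in MAVER (limma adjusted p = 0.208), and its difference was 0.69 as labelled and -0.85 exchanged. PAX5, which maintains B cell identity, was higher with IB in both lines as labelled (0.40 in JEKO1 and 0.28 in MAVER), with a difference of 0.11 (95% interval -0.02 to 0.24) that was not called, against -0.68 exchanged.

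B cell surface and activation markers were higher in JEKO1 as labelled for 15 of 29 members and lower for 10, with a median difference of 0.44; exchanged, 1 was higher and 13 lower, with a median of -0.21. CD180, a toll-like receptor homologue, had 1070, 923 and 1094 normalized counts in JEKO1 labelled IB, against 401, 412 and 418 in JEKO1 labelled DMSO. In MAVER, CD180 had 235, 226 and 242 with IB and 566, 532 and 589 with DMSO. The high libraries were those labelled IB in JEKO1 and those with DMSO in MAVER. Its difference was 2.58 ± 0.10 as labelled (limma adjusted p = 2.8e-17) and -0.06 exchanged (adjusted p = 0.706, 95% interval -0.26 to 0.14). MPEG1, a pore-forming protein, had effects of 2.26 in JEKO1 and -1.53 in MAVER. MS4A1, which encodes CD20, had effects of 0.62 in JEKO1 and -0.41 in MAVER, and its difference was 1.03 as labelled and -0.21 exchanged.

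CD27, a receptor of the TNF receptor family, had 561, 468 and 579 normalized counts in JEKO1 labelled IB, against 1717, 1764 and 1740 in JEKO1 labelled DMSO. In MAVER, CD27 had 477, 454 and 422 with IB and 213, 216 and 210 with DMSO. The treatments were apart in both lines, in opposite order. Its difference was -2.78 ± 0.10 as labelled (limma adjusted p = 1e-17) and 0.63 ± 0.10 exchanged (adjusted p = 4.78e-05). The ligand of CD27, CD70, had effects of 1.29 in JEKO1 and -0.12 in MAVER (limma adjusted p = 0.28), and the early activation antigen CD69 effects of 1.85 in JEKO1 and 0.30 in MAVER (adjusted p = 0.208). IL2RG, the common cytokine receptor chain, had effects of 0.97 in JEKO1 and -0.07 in MAVER (limma adjusted p = 0.347).

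Receptors of homing and egress had a higher effect in JEKO1 as labelled for 3 of 17 members, CXCR5, ITGAL and ITGB2. A lower one was seen for 7, with a median of -0.16. The shares were 17.6% and 41.2%, beside 21.7% and 19.7% of all genes. Exchanged, 4 were higher and 4 lower (23.5% each, beside 9.86% and 13%), with a median of 0.14. CXCR4, the receptor of CXCL12 that retains lymphoma cells in tissue, had 7153, 7244 and 7014 normalized counts in JEKO1 labelled IB, against 11637, 11538 and 11784 in JEKO1 labelled DMSO. In MAVER, CXCR4 had 11580, 12717 and 12030 with IB and 8984, 8788 and 9070 with DMSO. The groups were apart, with CXCR4 low with IB in JEKO1 and high with IB in MAVER. The CXCR4 difference was -1.14 ± 0.05 as labelled (limma adjusted p = 8.7e-16) and 0.27 ± 0.05 exchanged (adjusted p = 0.000355). S1PR4, a sphingosine 1-phosphate receptor, had -2.26 as labelled and -0.36 exchanged, the second one not called (adjusted p = 0.0679, limma). CXCR5, the receptor for the follicle chemokine CXCL13, had effects of 1.24 in JEKO1 and -0.14 in MAVER (limma adjusted p = 0.478). CCR7, a receptor for lymph node entry, was higher with IB in both lines as labelled (0.35 in JEKO1 and 0.48 in MAVER), and its difference of -0.13 was not called (95% interval -0.32 to 0.06), against -0.83 exchanged.

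Cell death genes of the BCL2 family moved in both directions. Of 15 members, 6 had a higher effect in JEKO1 as labelled and 5 a lower one; exchanged, 9 were lower, with a median of -0.38. HRK, a pro-apoptotic BH3-only protein, had 35.7, 31.0 and 20.9 normalized counts in JEKO1 labelled IB, against 122, 99.5 and 112 in JEKO1 labelled DMSO. In MAVER, HRK had 66.5, 59.2 and 77.5 with IB and 21.2, 22.9 and 21.1 with DMSO. Low and high libraries were apart and swapped between the lines. Its difference was -3.51 ± 0.28 as labelled (limma adjusted p = 7.58e-11) and 0.33 exchanged (95% interval -0.24 to 0.90). BMF, another BH3-only protein, had -1.17 as labelled and -0.29 exchanged, not called. BIK and BID, also BH3-only proteins, had effects of 1.70 and 0.88 in JEKO1 and of -0.03 and -0.02 in MAVER. The anti-apoptotic genes BCL2 and BCL2L1 were higher with IB in both lines as labelled. BCL2 had effects of 0.20 in JEKO1 and 0.46 in MAVER, and a lower effect in JEKO1 under both readings (-0.25 and -0.66). BCL2L1, which encodes BCL-XL, had effects of 0.42 in JEKO1 and 0.27 in MAVER, a difference of 0.15 that was not called as labelled (95% interval -0.03 to 0.32) and one of -0.69 exchanged. CDKN1A, the cyclin-dependent kinase inhibitor p21, had effects of equal size and opposite sign as labelled, 1.15 in JEKO1 and -1.15 in MAVER. Of its list of 25 CDK inhibitors and p53 targets, 8 were higher in JEKO1 and 7 lower as labelled (32% and 28%, beside 21.7% and 19.7% of all genes), against 2 higher and 8 lower exchanged (8% and 32%, beside 9.86% and 13%).

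Chaperones and protein turnover genes had small differences shared by many members. As labelled, 25 of 32 heat shock chaperones had a higher effect in JEKO1 and 1, FKBP5, a lower one, with a median of 0.42. In JEKO1 23 rose and 2 fell, and in MAVER 1 rose and 22 fell. Exchanged, 3 were higher and 10 lower (9.38% and 31.2%, beside 9.86% and 13% of all genes), with a median of -0.10. HSPH1, of the HSP110 family, had 6705, 7339 and 7610 normalized counts in JEKO1 labelled IB, against 4293, 4170 and 4629 in JEKO1 labelled DMSO. In MAVER, HSPH1 had 2741, 2599 and 2595 with IB and 3747, 3549 and 3547 with DMSO. Libraries with IB were the higher ones in JEKO1 and the lower ones in MAVER. Its difference was 1.18 ± 0.07 as labelled (limma adjusted p = 8.88e-14) and -0.27 ± 0.07 exchanged (adjusted p = 0.0035). HSP90AA1 had 0.97 as labelled and -0.49 exchanged.

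Of 32 proteasome subunits, 27 were higher as labelled, with a median of 0.34, and 8 were lower exchanged, with a median of -0.11. PSMD1, a subunit of the regulatory particle, had effects of 0.36 in JEKO1 and -0.15 in MAVER. Of 21 genes of the oxidative stress response under NRF2, 15 were higher as labelled and 8 lower exchanged, such as SQSTM1, the autophagy receptor p62, with 0.76 as labelled and -0.56 exchanged. Unfolded protein response genes numbered 18 higher and 6 lower of 31 as labelled (58.1% and 19.4%, beside 21.7% and 19.7% of all genes). Exchanged, 7 were higher and 4 lower (22.6% and 12.9%, beside 9.86% and 13%). HERPUD1, a membrane protein of the degradation machinery of the endoplasmic reticulum, had effects of 0.75 in JEKO1 and -0.37 in MAVER. DERL3, of the same machinery, fell in JEKO1 as labelled (-0.96), with an effect of 0.04 in MAVER (limma adjusted p = 0.841), and its difference was called under both readings, lower in JEKO1 as labelled and higher exchanged (0.91).

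Ribosomal protein genes had lower effects in JEKO1 as labelled. Of 51, 41 were lower, with a median difference of -0.32, and exchanged 27 were higher, with a median of 0.20. In JEKO1 43 fell as labelled (84.3%, beside 20.6% of all genes). In MAVER 5 rose, which at 9.8% is near the 9.77% of all genes. RPL22 had the lowest difference of the list. It had 1375, 1448 and 1448 normalized counts in JEKO1 labelled IB, against 2108, 2169 and 2114 in JEKO1 labelled DMSO. In MAVER, RPL22 had 1356, 1187 and 1226 with IB and 1181, 1139 and 1119 with DMSO. The JEKO1 groups were far apart, and those of MAVER lay close together with IB the higher, an effect of 0.13 that was not called (limma adjusted p = 0.0706). Without the JEKO1 DMSO library that was high in RNA45S5, 40 of the 51 were lower as labelled, with a median of -0.33. Reads of these genes may be shared with their many pseudogenes, so single values are uncertain. The MYC network and ribosome biogenesis list numbered 2 higher (ODC1 and NOP2) and 15 lower of 36 as labelled, with a median of -0.13, against 12 and 2 exchanged.

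Cell cycle genes divided by phase. Of 39 genes of the G1/S transition and DNA replication, 23 were higher in JEKO1 as labelled and 3 lower (MCM2, GINS2 and UNG), with a median of 0.22; exchanged, 18 were lower, with a median of -0.18. Of 40 mitotic genes, 3 were higher as labelled (CDC25A, FOXM1 and MYBL2) and 24 lower, with a median of -0.23. The shares were 7.5% and 60%, beside 21.7% and 19.7% of all genes. Exchanged, 3 were higher and 3 lower (7.5% each, under the 9.86% and 13% of all genes), with a median of 0.03. CCNE2, cyclin E2, had 88.1, 102 and 106 normalized counts in JEKO1 labelled IB, against 36.2, 45.8 and 34.3 in JEKO1 labelled DMSO. In MAVER, CCNE2 had 299.6, 295 and 321 with IB and 351, 346 and 343 with DMSO. It was higher with IB in JEKO1 as labelled, and its MAVER effect of -0.18 was not called (limma adjusted p = 0.31), so that the difference was 1.51 ± 0.17 as labelled and -1.15 ± 0.17 exchanged. CDC25B, a phosphatase that starts mitosis, had effects of -0.42 in JEKO1 and 0.63 in MAVER and a lower effect in JEKO1 under both readings (-1.05 and -0.21). CENPF and BIRC5, both of dividing cells, had differences of -0.58 and -0.45 as labelled and of -0.04 and -0.01 exchanged, the exchanged ones not called.

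**Figure D5:**
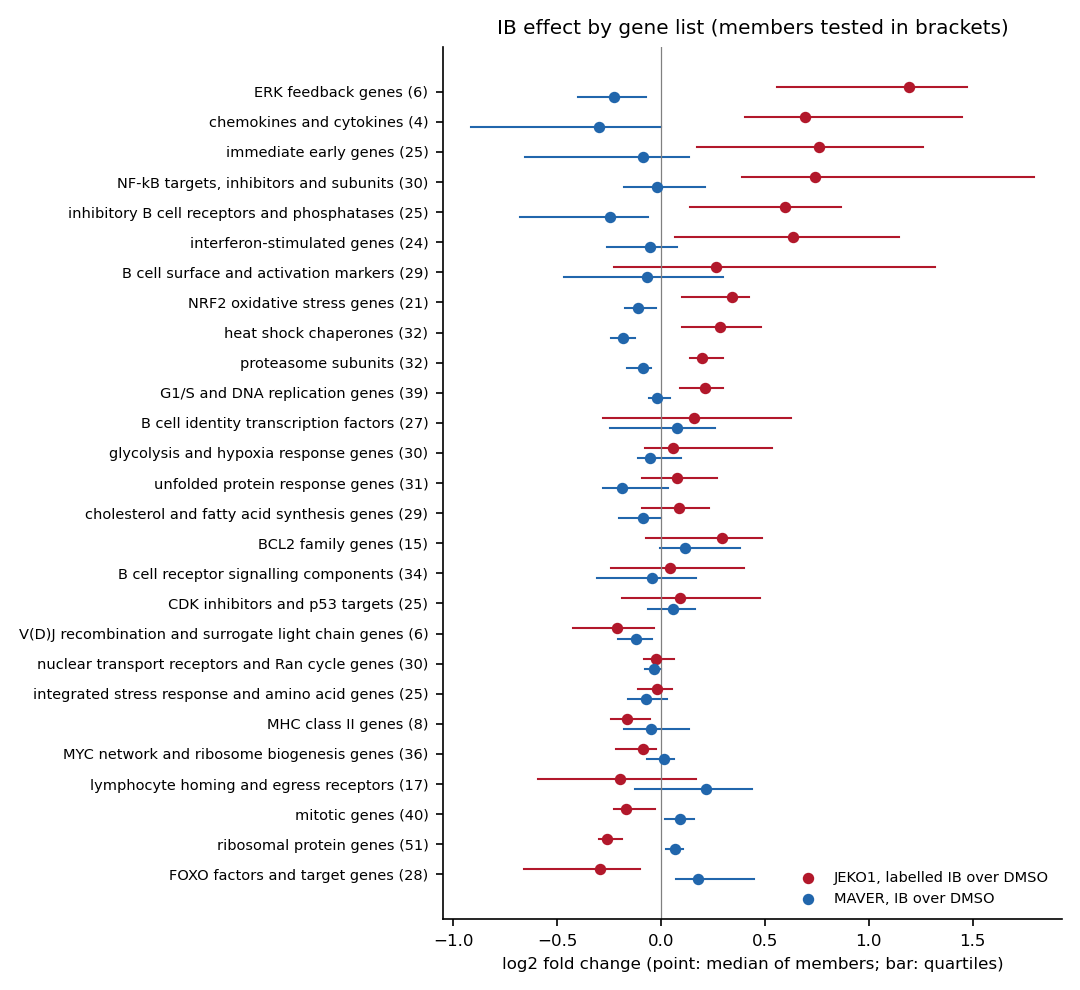
Median (point) and quartiles (bar) of the IB effect over the measured members of each of 27 gene lists, in log2 fold change of IB over DMSO, for JEKO1 as labelled and for MAVER. The median of the NF-kB genes is 0.74 in JEKO1 and -0.02 in MAVER, where 7 of the 30 rose and 6 fell. Chaperones lie on opposite sides of 0 (0.28 and -0.18), and FOXO targets do so in the reverse order (-0.30 and 0.18).

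Metabolic genes showed single wide differences within lists of small median. Of 30 glycolysis and hypoxia response genes, 16 were higher and 4 lower as labelled (PFKL, ALDOC, FBP1 and BNIP3L), with a median of 0.19, against 6 and 12 exchanged. FBP1, a gluconeogenic phosphatase that opposes glycolysis, had 51.6, 43.6 and 56.5 normalized counts in JEKO1 labelled IB, against 231, 191 and 227 in JEKO1 labelled DMSO. In MAVER, FBP1 had 226, 240 and 242 with IB and 82.0, 67.6 and 75.8 with DMSO. The groups were apart and in opposite order, with a difference of -3.72 ± 0.18 as labelled (limma adjusted p = 3.24e-15) and 0.44 exchanged (95% interval 0.07 to 0.80, adjusted p = 0.0805). ALDOC, an aldolase isoform, fell in JEKO1 as labelled (-1.52) and had an effect of -0.10 in MAVER (limma adjusted p = 0.414), with differences of -1.41 as labelled and 1.62 exchanged. VEGFA, the vascular growth factor, and ENO2, an enolase isoform, had differences of 1.63 and 1.84 as labelled and of -1.05 and -0.87 exchanged. Of 29 cholesterol and fatty acid synthesis genes, 12 were higher and 4 lower as labelled (41.4% and 13.8%, beside 21.7% and 19.7% of all genes). Exchanged, 3 were higher and 8 lower (10.3% and 27.6%, beside 9.86% and 13%). In this list ELOVL6, a fatty acid elongase, had a lower effect in JEKO1 under both readings (-1.57 and -0.72). The desaturase FADS2 had effects of 0.97 in JEKO1 and -0.66 in MAVER. SLC7A11, the cystine transporter, had a difference of 1.86 as labelled and -0.33 exchanged, not called; its list of 25 integrated stress response genes numbered 7 higher and 4 lower as labelled (28% and 16%, near the 21.7% and 19.7% of all genes), against 6 higher and 1 lower exchanged.

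Interferon-stimulated genes were mostly higher in JEKO1 labelled IB than in JEKO1 labelled DMSO, with a median effect of 0.63, against -0.05 in MAVER. In MAVER 5 rose and 5 fell (20.8% each, beside 9.77% and 9.22% of all genes). Of 24, 16 were higher as labelled and 5 lower (STAT2, ISG20, MX2, OAS1 and DDX58), with a median of 0.66; exchanged, 1 was higher and 13 lower, with a median of -0.65. MX1, an antiviral GTPase, had 360, 382 and 369 normalized counts in JEKO1 labelled IB, against 136, 114 and 121 in JEKO1 labelled DMSO. In MAVER, MX1 had 65.5, 88.3 and 79.7 with IB and 116, 90.5 and 101 with DMSO. The JEKO1 groups were far apart, and the MAVER groups were just apart with IB the lower. Its difference was 1.97 ± 0.18 as labelled (limma adjusted p = 7.76e-10) and -1.18 ± 0.18 exchanged (adjusted p = 1.79e-05). OAS2, an antiviral enzyme, was higher with IB in both lines as labelled (0.47 in JEKO1 and 0.42 in MAVER), and its difference of 0.05 was not called (95% interval -0.13 to 0.23), against -0.90 exchanged. Of 8 measured genes of MHC class II presentation, 2 were higher and 4 lower as labelled (25% and 50%, beside 21.7% and 19.7% of all genes). Exchanged, 4 were higher and 1, CIITA, was lower (50% and 12.5%, beside 9.86% and 13%). CIITA, their master regulator, had no called effect in JEKO1 (-0.06) and an effect of 0.55 in MAVER, so that its effect was lower in JEKO1 under both readings (-0.62 and -0.49).

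The leading genes outside these lists were taken from both ends of the called differences, with treatments apart in at least 1 line. Their call and that separation follow from the choice. WNT10A, a secreted ligand whose promoter window is shown above, had 129, 112 and 111 normalized counts in JEKO1 labelled IB, against 7.76, 8.94 and 5.72 in JEKO1 labelled DMSO. In MAVER, WNT10A had 72.2, 76.0 and 69.0 with IB and 191, 218 and 247 with DMSO. The treatments were apart in both lines, with IB high in JEKO1 and low in MAVER. Its difference was 5.40 ± 0.24 as labelled (limma adjusted p = 5.21e-16) and -2.25 ± 0.24 exchanged (adjusted p = 1.05e-07). CYTH4, a guanine nucleotide exchange factor for ARF proteins, had differences of 4.51 as labelled and -0.82 exchanged, the second one lost under 11 of the alternative settings, and the lectin CLEC17A 3.35 and 0.07, the second one not called (95% interval -0.35 to 0.48). Among the lowest, TMCC2 had 219, 179 and 189 normalized counts in JEKO1 labelled IB, against 755, 768 and 732 in JEKO1 labelled DMSO. In MAVER, TMCC2 had 516, 506 and 498 with IB and 106, 94.3 and 122 with DMSO. Libraries with IB were the lower ones in JEKO1 and the higher ones in MAVER. Its difference was -4.18 ± 0.13 as labelled (limma adjusted p = 6.01e-19) and -0.30 exchanged (adjusted p = 0.1, 95% interval -0.56 to -0.03). VDR, the vitamin D receptor, had -2.91 as labelled and 0.07 exchanged, not called. C10orf10 had -3.47 as labelled and 0.57 exchanged, CPLX1, a complexin, -3.16 and 1.33, and CDHR3, a cadherin-related protein, -3.13 and -0.81.

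A group of genes was chosen for a wide effect in MAVER and one within 0.2 of 0 in JEKO1. That choice fixes a difference of like sign under both readings of the labels, so the values are a description, with no test. MYBPC2, a myosin-binding protein, had 172, 132 and 139 normalized counts in JEKO1 labelled IB, against 127, 160 and 133 in JEKO1 labelled DMSO. In MAVER, MYBPC2 had 18.3, 23.5 and 25.5 with IB and 109, 99.1 and 92.2 with DMSO. The JEKO1 groups overlapped and the MAVER groups were far apart. Its difference was 2.20 ± 0.22 as labelled and 2.04 ± 0.22 exchanged. NAPSB, an aspartic protease gene, had differences of 1.44 and 1.05, CHI3L2, a chitinase-like protein, 0.98 and 1.19, ANTXR2, an anthrax toxin receptor, 0.95 and 0.82, XYLT1, a xylosyltransferase, 1.01 and 0.64, and ESPNL 0.73 and 0.73, each as labelled and then exchanged, and all of them fell with IB in MAVER.

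Of the genes chosen in the same way that were higher with IB in MAVER, TCF7, a transcription factor of WNT signalling best known from T cells, had 193, 194 and 204 normalized counts in JEKO1 labelled IB, against 172, 192 and 173 in JEKO1 labelled DMSO. In MAVER, TCF7 had 227, 206 and 194 with IB and 79.2, 95.3 and 96.9 with DMSO. The JEKO1 groups nearly touched, and the MAVER libraries with IB were all above those with DMSO. The TCF7 difference was -1.06 ± 0.15 as labelled and -1.34 ± 0.15 exchanged. TRIO, a guanine nucleotide exchange factor, had differences of -1.03 and -0.77, THEMIS2, a B cell signalling adaptor, -0.99 and -0.89, SYNE2, a nuclear envelope protein, -0.85 and -0.72, PTP4A3, a phosphatase, -0.81 and -0.68, and SNED1 -0.69 and -0.78, in each pair as labelled and then exchanged.

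Other genes were chosen for a wide effect in JEKO1 and one within 0.2 of 0 in MAVER, which fixes a difference whose sign turns with the labels. They included PLEKHO1, with 1.97 as labelled and -1.64 exchanged, NDUFA4L2, a mitochondrial protein induced by hypoxia, with -1.47 and 1.65, and GRAP2, an adaptor protein, with -1.01 and 1.22. ZC3H6 had -1.47 and 1.25, NADK2, the mitochondrial NAD kinase, -1.24 and 0.90, and PECAM1, an adhesion molecule with inhibitory motifs, -1.22 and 0.94. A last group had like effects in both lines as labelled. SCARA5, a scavenger receptor, had 127, 136 and 119 normalized counts in JEKO1 labelled IB, against 201, 211 and 196 in JEKO1 labelled DMSO. In MAVER, SCARA5 had 54.9, 57.0 and 49.9 with IB and 85.7, 84.8 and 94.6 with DMSO. Libraries with IB were the lower ones in both lines, without overlap. Its difference was 0.04 ± 0.17 as labelled (limma adjusted p = 0.888, 95% interval -0.31 to 0.39) and 1.37 ± 0.17 exchanged (adjusted p = 1.49e-06).

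Nuclear transport receptors, which include XPO1, the exporter of IkB-alpha and the target of selinexor, differed little. Of 30, 5 were higher in JEKO1 as labelled and 3 lower, with a median of 0.00. The shares were 16.7% and 10%, beside 21.7% and 19.7% of all genes. Exchanged, 4 were higher and 2 lower (13.3% and 6.67%, beside 9.86% and 13%). XPO1 had 7338, 7662 and 7637 normalized counts in JEKO1 labelled IB, against 6670, 6777 and 7337 in JEKO1 labelled DMSO. In MAVER, XPO1 had 4878, 4770 and 5247 with IB and 5229, 5134 and 5333 with DMSO. The JEKO1 groups were narrowly apart, and the MAVER groups overlapped. The XPO1 difference was 0.20 ± 0.06 as labelled (limma adjusted p = 0.00784) and -0.05 exchanged (adjusted p = 0.613, 95% interval -0.17 to 0.07).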

How the data were processed

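Libraries of JEKO1 and MAVER RNA were prepared with a stranded TruSeq kit and read from one end on an Illumina HiSeq, per the labels' protocols. The authors aligned reads with STAR, estimated abundance with Cufflinks and used DESeq2, per the labels' protocols; FastQC and the hg19 build are named in the submitters' processing notes. For the read counter, the strand setting and the annotation nothing is given in the sources used. The values the authors deposited are normalized counts (the signal of a gene after division by a size factor), 1 table per line, each table normalized separately, so levels are not compared between lines. Of all values, 100% were whole reads within 0.01 of a read after the factor was removed, which gave the depth of 8415254 to 12627963 reads per library.

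Genes with a mean of at least 10 in both lines entered limma 3.58.1 (R 4.3.3) on log2(value + 1), with 4 groups of 3 libraries, a mean-variance trend and Benjamini-Hochberg adjustment over 10591 genes; a gene was called at an adjusted p below 0.05. Because 1 was added, fold changes of low genes come out too small on this log2(value + 1) scale. Intervals are 95% and not adjusted. The step was run on simulated data with an assumed spread and changes placed in the JEKO1 IB group alone. The outcome of that run is not reported here. edgeR 4.0.16 and DESeq2 1.42.0 on the recovered reads were alternatives, beside other added constants, filters, scalings, a fit with all 18 libraries, a replicate block and leaving out each library. The genes named are the 10 highest and 10 lowest differences under each reading (called, averaging at least 50 in both lines and with treatments apart in at least 1 line), the 6 highest and 6 lowest effects of each line with the other within 0.2 of 0, the 4 members of each of 27 lists with the smallest p as labelled and the 2 exchanged, and BTK, XPO1 and NFKBIA. TRAF3, TNF, LTB, BCL2L11, CCND1, SOX11, CD5, RNA45S5 and the members named beside a count of 5 or fewer were chosen after their values were seen. For the 10 highest and 10 lowest differences, the choice fixes a call under the reading used and treatments apart in at least 1 line. The members and lists were chosen with earlier results of these data known. TIGAR is listed as C12orf5, and 28 gene names altered to dates in the tables, 17 of them tested, are not named. Values of near-identical copies, such as HSP70, HLA and ribosomal protein genes, are uncertain. Promoters are RefSeq windows on GRCh38.p14, used for genes with 1 listed start. Some results on single genes are not reported here.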

Additional observations from a re-analysis of the deposited data

Results flagged for a closer look

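The results below were picked out because the JEKO1 and MAVER effects differed by a test of the difference itself (limma, Benjamini-Hochberg adjusted). As labelled, 2301 genes had a higher and 2084 a lower IB effect in JEKO1 than in MAVER. With the JEKO1 labels exchanged, these counts were 1044 and 1380. Of the genes fixed by name, BTK had a difference of 0.44 as labelled, NFKBIA, the gene of IkB-alpha, one of 1.65, and XPO1 one of 0.20. Groups of 3 libraries were too small for a check for single outlying libraries.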

How the results depend on the processing

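All counts over all genes stayed within 1.5 times of the reported ones under every alternative run. Outside the leave-one-out fits, the counts of genes higher and lower in JEKO1 ranged over 2088 to 2484 and 1827 to 2226 as labelled, and over 765 to 1246 and 1105 to 1592 exchanged. Leaving out each library in turn gave 2136 to 2241 and 1893 to 2038 as labelled, and 825 to 1055 and 1160 to 1413 exchanged. The replicate block gave 2484 and 2226 as labelled and 1246 and 1592 exchanged. Whether the replicate letters pair the libraries is not stated in the labels. Correlations of deviations between IB and DMSO of the same letter were 0.04, -0.03 and 0.16 in JEKO1 and -0.02, 0.06 and 0.06 in MAVER. Between the lines, libraries of the same treatment and letter had correlations of -0.02 to 0.14. edgeR called 2219 and 2201 genes as labelled and 1065 and 1427 exchanged, and DESeq2 called 2157 and 1827 as labelled and 872 and 1203 exchanged. Rescaling moved the median difference over all genes by at most 0.01345. For the gene lists, 2375 counts stayed equal or within 1.5 times of the reported ones under the alternatives, and 109 did not. Of the list medians, 1229 moved by less than the median standard error of the members, and 13 did not. For the named genes, 8123 values kept a call and its direction, or were uncalled as reported and gained no call in that direction. Uncalled differences that changed sign are among these 8123. A further 105 values lost their call, 33 gained one and 1 called value reversed. That one was EGR1 with the labels exchanged and a constant of 5 (-0.44, adjusted p = 0.295), where MAVER with IB held 1 read; the cause was not tested beyond that. As labelled, XPO1 alone among the named genes lost its call, under the fit without a variance trend. Some exchanged differences were less stable, small ones such as MS4A1 (-0.21) and wider ones such as CCL22 (-1.35). Calls were lost under 12 alternatives for LIG4, 11 for EGR1 (the reversal included), CYTH4 and PSMD2, and 10 for BTK and NAB2. The number was 8 for CCL22, 7 for WARS, 6 for SPIB, 4 for NR4A3 and 3 for TP53INP1, FADS2 and HLA-DQB1. It was 2 for MS4A1 and 1 for ESPNL, ATF5, DUSP5 and SPRY1. S1PR4 gained an exchanged call under 6. Low depth limits EGR1, CCL22 and DUSP5, which lie at a few reads in their low groups.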

Other observations

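Several genes of the pathways described did not average 10 normalized counts in both lines and entered no comparison. RAG2, the partner of RAG1, averaged 1.57 normalized counts in JEKO1 and 47.0 in MAVER. HLA-DRA, the MHC class II alpha chain, averaged 0.489 in JEKO1 and 78.6 in MAVER. EGR2 averaged 45.1 in JEKO1 and 8.19 in MAVER, and BCL2A1, an anti-apoptotic NF-kB target, 21.7 in JEKO1 and 2.84 in MAVER. BCL2L11, of the BCL2 family list, averaged 2.32 in JEKO1 and 3898 in MAVER. LTA, of the MHC region like HLA-DRA, TNF and LTB, was listed at 0 in JEKO1 and averaged 4.31 in MAVER; low values of this region are not read as absence of expression. The tables of the lines were normalized separately, so these averages over 6 libraries of a line show which genes fell under the minimum and are not a test between lines. In the lists with few called members, V(D)J recombination genes counted 1 lower of 6 as labelled, RAG1 (16.7%, near the 19.7% of all genes), and 2 higher exchanged, VPREB3 and LIG4, the call of LIG4 being lost under 12 of the alternative settings.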
